A study of Mus musculus with 28 samples.

Results

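The interferon-induced GTPases described here are 10 genes of the immunity-related GTPase (IRG) and guanylate-binding protein (GBP) families of the mouse: Iigp1, Irgm1, Irgm2, Igtp, Ifi47, Gbp2, Gbp3, Gbp5, Gbp7 and Gbp9. They were chosen by name, with earlier results of these data known, so their counts of calls are descriptive. A gene was measured by the brightest probe set that carries its symbol and no other. Of the 10, 6 had such a probe set (Iigp1, Irgm1, Gbp3, Gbp5, Gbp7 and Gbp9), and all 6 passed the filter on dim genes, among 13512 genes tested in all. Irgm2, Igtp, Ifi47 and Gbp2 were present only on probe sets that list several genes, so their own levels were not measured, and those probe sets are described separately by their identifiers.

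Macrophages resident in the peritoneal cavity were collected by lavage without thioglycollate and profiled on microarrays after a night in serum-free medium, with lymphocytes and other non-adherent cells washed off. Of 7 groups of 4 arrays, the first held uninjected ATF7 knockout mice in C57BL/6 background (ATF7 KO). In 5 further groups, wild-type C57BL/6 mice received LPS (an outer membrane lipid of Gram-negative bacteria), PGN (peptidoglycan of the bacterial cell wall), IMQ (imiquimod, a small-molecule agonist of a nucleic acid sensor), BG (β-glucan of the fungal cell wall) or PBS intravenously. The last group held uninjected wild-type mice of the same background (WT). Injected mice were treated at 7 to 8 weeks of age and their cells were taken 3 to 4 weeks later (labelled 3w), at 10 to 12 weeks of age. Ages of the uninjected mice, the part of Atf7 deleted, and the cells in which it was deleted are not given in the labels. The 4 arrays of a group are described by the authors as biologically independent experiments.

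IRG and GBP proteins are large GTPases made by macrophages in response to interferons. Interferon receptors signal through JAK kinases to STAT and IRF transcription factors, which bind short elements near the start sites of these genes. Effector IRGs and GBPs assemble on the vacuoles that hold intracellular parasites and bacteria and help to break them open, and some GBPs expose bacterial products to inflammasomes. The IRGM proteins guard the cell's own membranes by holding effector IRGs inactive. ATF7 is a transcription factor of the CREB/ATF family.

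Depth and sample identity were checked over the whole series. Median signal per array lay between 107 and 115 (linear units), and arrays of 1 group correlated at 0.985 to 0.996. The summed signal of 10 macrophage markers lay between 34330 and 39160 on every array, and was lowest after BG (34330 to 35030). Among these markers Gata6, a transcription factor of resident peritoneal macrophages, averaged 8.97 ± 0.23 in ATF7 KO and 10.48 ± 0.27 in WT (log2, SD, n = 4 each; adjusted p = 8.58e-10, limma), and 9.41 ± 0.13 after BG and 10.35 ± 0.23 after PBS (adjusted p = 7.84e-07). In ATF7 KO 4 of the 10 were lower and 2 higher, and after BG 4 were lower. Over all genes tested, 28.3% were called in either direction in ATF7 KO and 41.6% after BG. The Atf7 probe set averaged 10.28 ± 0.04 in ATF7 KO and 10.73 ± 0.08 in WT (log2, SD, n = 4 each), lower by 0.45 in ATF7 KO with no overlap. The labels do not say whether its probes lie in the deleted part, so it bears little on the identity of the knockout. Atf7 was also lower after BG, at 10.46 ± 0.07 against 10.71 ± 0.11 after PBS (adjusted p = 9.8e-05, limma). Some pairs of groups stood apart from the rest: 343 probe sets had all 8 BG and ATF7 KO arrays above or all 8 below the other 20 arrays, 165 did so for ATF7 KO and WT, and 145 for PGN and IMQ. The labels name no batch.

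Iigp1, an effector IRG that coats parasite vacuoles, spanned the widest range of group means, with 8.47 ± 0.66 in ATF7 KO, 8.40 ± 0.16 after LPS, 7.70 ± 0.42 after PGN, 7.99 ± 0.58 after IMQ, 7.90 ± 0.64 after BG, 7.03 ± 0.56 after PBS and 6.94 ± 0.39 in WT (log2 signal, SD, n = 4 each). Irgm1, a regulatory IRG, averaged 9.34 ± 0.33 in ATF7 KO, 9.02 ± 0.11 after LPS, 8.69 ± 0.20 after PGN, 8.87 ± 0.21 after IMQ, 8.57 ± 0.21 after BG, 8.59 ± 0.21 after PBS and 8.50 ± 0.18 in WT. In both genes ATF7 KO stood highest, LPS next and WT lowest. Iigp1 was above the background floor (6.32 in log2 units, set from odorant and vomeronasal receptor probe sets) on 27 of 28 arrays, and the exception, PBS replicate 3, lay at 6.31. The other 5 were above it on all 28. Because levels of different genes come from different probes, no gene's level is set against another's.

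Among the GBPs, Gbp3 averaged 9.56 ± 0.38 in ATF7 KO, 9.38 ± 0.28 after LPS, 9.17 ± 0.18 after PGN, 9.31 ± 0.27 after IMQ, 9.48 ± 0.40 after BG, 8.79 ± 0.22 after PBS and 8.82 ± 0.18 in WT. Gbp5, which promotes inflammasome assembly, averaged 8.73 ± 0.47 in ATF7 KO, 8.77 ± 0.43 after LPS, 7.89 ± 0.37 after PGN, 8.10 ± 0.49 after IMQ, 8.34 ± 0.43 after BG, 7.60 ± 0.81 after PBS and 7.90 ± 0.18 in WT. Here the LPS mean stood highest and the PBS mean lowest. Gbp7, which takes part in delivering host defence proteins to vacuoles, averaged 9.37 ± 0.39 in ATF7 KO, 9.32 ± 0.22 after LPS, 8.89 ± 0.12 after PGN, 8.90 ± 0.36 after IMQ, 8.95 ± 0.27 after BG, 8.64 ± 0.28 after PBS and 8.53 ± 0.14 in WT. Gbp9 averaged 7.87 ± 0.53 in ATF7 KO, 8.05 ± 0.26 after LPS, 7.49 ± 0.18 after PGN, 7.63 ± 0.43 after IMQ, 7.67 ± 0.27 after BG, 7.15 ± 0.24 after PBS and 7.38 ± 0.15 in WT. When groups were ordered by their mean, all 36 pairs of neighbours in the orders of the 6 genes had overlapping arrays.

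**Figure D1:**
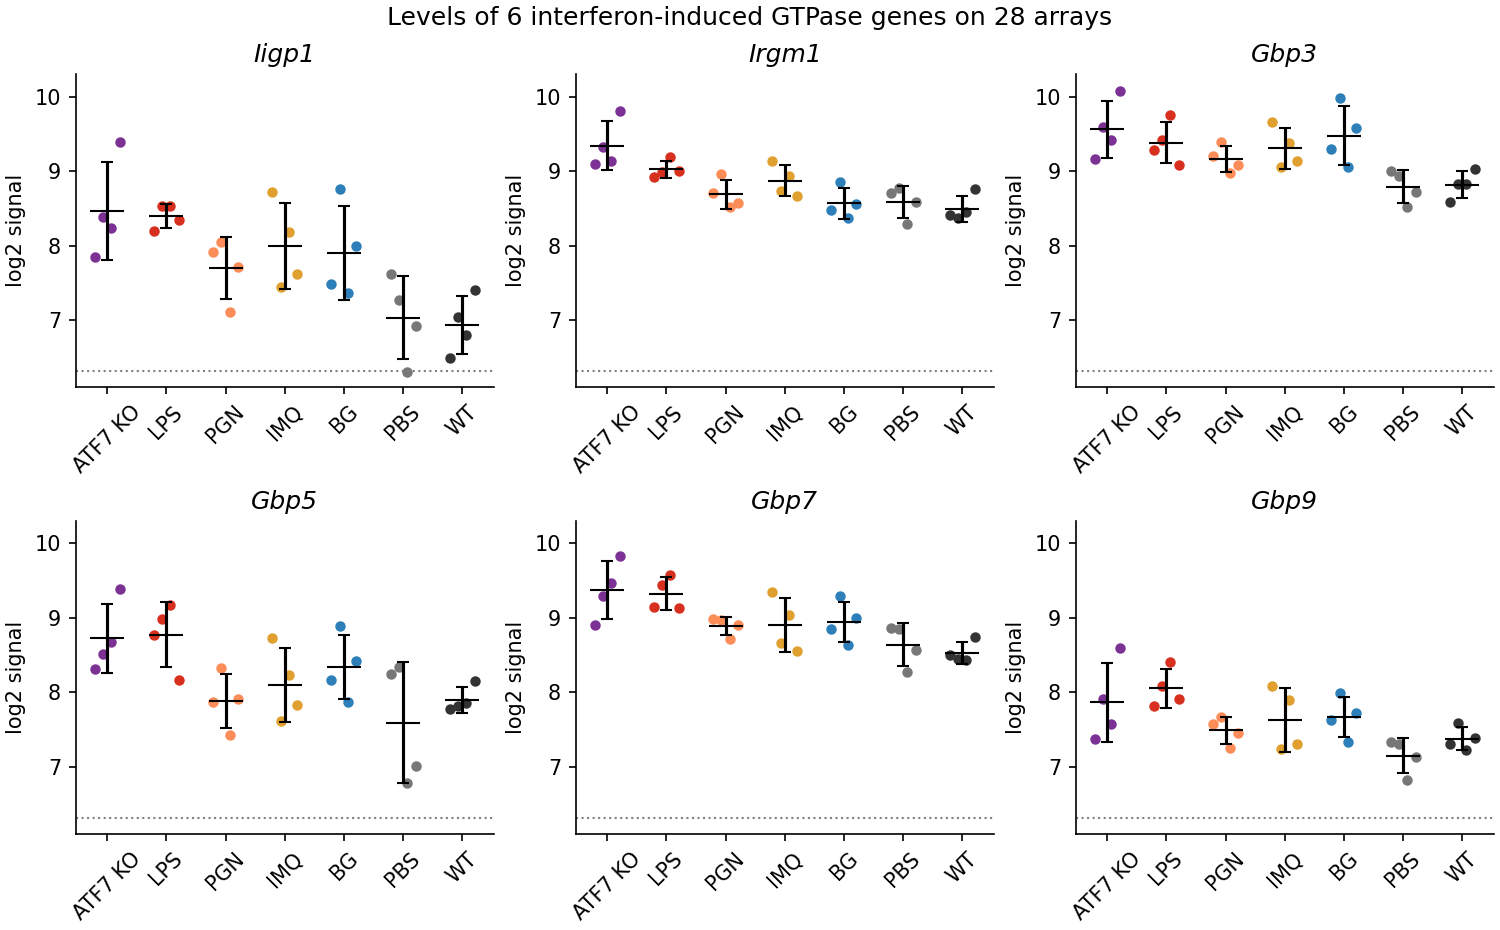
Level of each of the 6 genes (vertical axis, log2 signal) on every array, by group (horizontal axis); points are arrays, the horizontal mark and bars are the mean and SD of 4 arrays, and the dotted line is the background floor at 6.32. In Iigp1 the ATF7 KO and LPS arrays, between 7.84 and 9.39, lie above all PBS and WT arrays, between 6.31 and 7.62.

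The start regions of these genes were searched for elements bound by interferon-activated factors and by ATF7's family. Promoters of 8 of the 10 genes were in the RefSeq table used (GRCm38.p6; 250 bases before to 50 after a start), and 7 of those 8 held the core of the interferon-stimulated response element, searched as GAAA, 2 bases of any kind and GAAA on both strands with overlapping matches allowed, which 3.44% of all 32851 promoters hold. The exception was Ifi47. Gbp3 has 2 starts there and the second holds no match, so by promoters the element was in 7 of 9. A gamma-activated site (TTCNNNGAA, bound by STAT dimers) was in 4 of the 8 (Gbp5, Gbp7, Igtp and Irgm2), against 8.3% of all promoters, and the CREB/ATF palindrome TGACGTCA in 0 of 8, against 1.79% of all promoters. No gamma-activated site overlapped a response element in these genes. A match is a description of letters in this window only. Printed here are the stretches around the response element in the 4 genes measured alone that hold it, and in Irgm2 and Igtp, which share a probe set; the response element is in capitals.
Irgm1, chr11:48871421-48871465, minus strand: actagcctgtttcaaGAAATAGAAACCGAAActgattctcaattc
Gbp3, chr3:142559984-142560029, plus strand: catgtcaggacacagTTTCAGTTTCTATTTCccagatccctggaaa
Gbp5, chr3:142496754-142496793, plus strand: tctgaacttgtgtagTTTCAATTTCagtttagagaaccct
Gbp7, chr3:142530268-142530307, plus strand: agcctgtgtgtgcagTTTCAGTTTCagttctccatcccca
Irgm2, chr11:58214898-58214937, plus strand: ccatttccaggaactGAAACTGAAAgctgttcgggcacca
Igtp, chr11:58199507-58199546, plus strand: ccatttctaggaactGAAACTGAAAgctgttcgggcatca
In Irgm1 and Gbp3, 2 overlapping matches run together, and the first matched base lies at position -30 and -45 from the start in Irgm1 and Gbp3. In Gbp5, Gbp7, Irgm2 and Igtp it lies at -165, -53, -64 and -34. Iigp1 and Gbp9 have no entry in the table.

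The comparison of ATF7 KO with WT asks which genes differ in resting macrophages without ATF7. Of the 6 GTPase genes, 5 were higher in ATF7 KO and 0 lower at an adjusted p under 0.05 (limma, adjusted over all 13512 genes by Benjamini-Hochberg), where 17.7% of all genes tested were called higher and 28.3% were called in either direction. The effector Iigp1 rose 2.88-fold and the regulator Irgm1 1.80-fold, and among the GBPs Gbp3 rose 1.67-fold, Gbp5 1.77-fold and Gbp7 1.79-fold. The median change of the 6 was 0.83 (log2), against 0.005 over all genes tested.

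Iigp1 was at 7.84, 8.39, 8.24 and 9.39 on the 4 ATF7 KO arrays and at 6.49, 7.05, 6.81 and 7.41 on the 4 WT arrays (log2 signal). Its lowest ATF7 KO array lay above its highest WT array, and the difference was 1.53 ± 0.32 (SE, adjusted p = 6.31e-04, limma). Irgm1 was at 9.10, 9.32, 9.14 and 9.81 in ATF7 KO and at 8.41, 8.37, 8.45 and 8.76 in WT, again without overlap (0.85 ± 0.14, adjusted p = 3.29e-05). It had the smallest p of the 6.

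Gbp3 was at 9.16, 9.59, 9.41 and 10.07 in ATF7 KO and at 8.59, 8.83, 8.83 and 9.03 in WT (0.74 ± 0.18, adjusted p = 0.00255, limma). Gbp7 was at 8.90, 9.30, 9.46 and 9.83 in ATF7 KO and at 8.50, 8.45, 8.43 and 8.74 in WT (0.84 ± 0.17, adjusted p = 4.67e-04). Both were separated on every array. Gbp5 was at 8.32, 8.52, 8.68 and 9.39 in ATF7 KO and at 7.77, 7.81, 7.85 and 8.16 in WT, also without overlap, but its p lay close to the threshold (0.83 ± 0.30, adjusted p = 0.042). That call was lost when any of 6 of the 8 arrays was left out (adjusted p between 0.0316 and 0.159). Gbp9 was at 7.38, 7.91, 7.58 and 8.59 in ATF7 KO and at 7.31, 7.58, 7.23 and 7.39 in WT, so the groups overlapped, and the difference of 0.49 ± 0.20 missed the threshold (adjusted p = 0.0705). It passed without ATF7 KO replicate 1 or 3 and, with all arrays, after each array was centred on its median (adjusted p = 0.0387) or quantile normalized again (0.0495). In all, 5 of 6 had ATF7 KO arrays wholly above WT arrays, where 13.4% of all genes did.

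B-cell transcripts moved with the same comparison, where 28.3% of all genes tested were called in either direction. All 7 B-cell markers tested, of 10 listed, were lower in ATF7 KO (median -1.15, log2), and their summed signal was 1556 to 2744 in ATF7 KO and 2995 to 5217 in WT; 2 more were at the floor in both groups. Of 7 dendritic and monocyte-derived cell markers tested, 4 were lower (summed signal 1661 to 2127 in ATF7 KO, 2161 to 2794 in WT), while 0 of 3 T and NK cell markers tested were called (limma; 0 at an unadjusted p under 0.05) and 9 or 10 of the 12 with a probe set were at the floor on every array of each of these groups. The part of these cells, and of the fall of Gata6, in the GTPase difference was not tested. In bulk samples fewer cells of a type and less RNA per cell cannot be told apart.

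**Figure D2:**
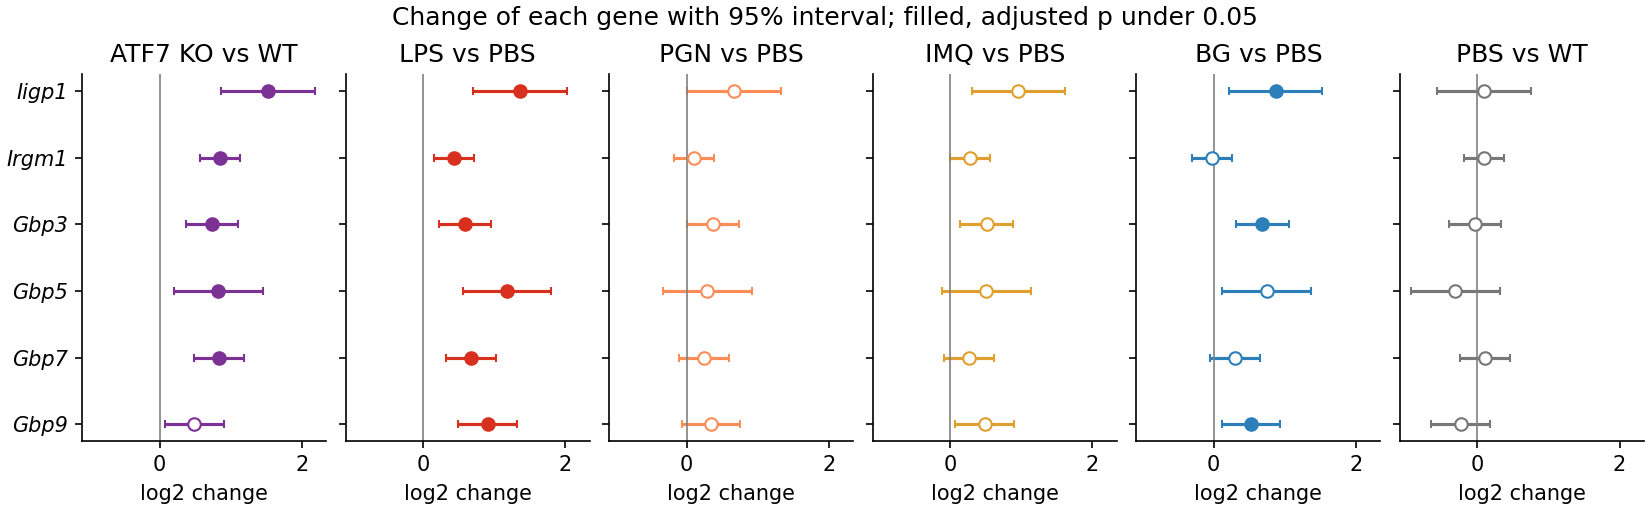
Change of each gene (horizontal axis, log2, first group minus second) in 6 comparisons, with 95% confidence intervals of the fit; filled points have an adjusted p under 0.05. All 6 genes are filled after LPS, 5 in ATF7 KO, 3 after BG and 0 after PGN, after IMQ or in PBS against WT.

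The comparison of LPS with PBS asks which genes differ in macrophages weeks after injection. With no earlier time measured, differences that remained and differences that arose later cannot be told apart. All 6 genes were higher after LPS, where 4.36% of all genes tested were called higher and 9.88% were called in either direction. Iigp1 rose 2.58-fold, Gbp5 2.27-fold, Gbp9 1.87-fold, Gbp7 1.60-fold, Gbp3 1.51-fold and Irgm1 1.35-fold. The median change was 0.79 (log2), against -0.01 over all genes tested.

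Iigp1 was at 8.19, 8.53, 8.53 and 8.34 on the LPS arrays and at 7.62, 7.28, 6.31 and 6.92 on the PBS arrays (1.37 ± 0.32, adjusted p = 0.0179, limma). Irgm1 was at 8.92, 8.98, 9.19 and 9.0 after LPS and at 8.71, 8.77, 8.29 and 8.58 after PBS (0.44 ± 0.14, adjusted p = 0.0432). Both IRGs were separated on every array. Irgm1 had the smallest change of the 6, and its p moved to 0.0509 when arrays were centred on their medians.

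Gbp9 was at 7.82, 8.08, 8.41 and 7.91 after LPS and at 7.33, 7.30, 6.82 and 7.13 after PBS (0.91 ± 0.20, adjusted p = 0.015, limma). Gbp7 was at 9.14, 9.45, 9.57 and 9.13 after LPS and at 8.87, 8.86, 8.27 and 8.57 after PBS (0.68 ± 0.17, adjusted p = 0.0222). Neither overlapped. Gbp3 was at 9.28, 9.41, 9.75 and 9.09 after LPS and at 9.0, 8.93, 8.52 and 8.72 after PBS (0.59 ± 0.18, adjusted p = 0.0406), separated by a narrow gap. Gbp5 was at 8.78, 8.98, 9.17 and 8.17 after LPS and at 8.25, 8.34, 6.78 and 7.01 after PBS (1.18 ± 0.30, adjusted p = 0.0237). LPS replicate 4 lay below PBS replicates 1 and 2, so Gbp5 alone of the 6 overlapped, and fitted on these 8 arrays only it was not called (adjusted p = 0.0741). The other 5 had LPS arrays wholly above PBS arrays, as did 8.89% of all genes.

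These calls rested on single arrays. Without LPS replicate 2, 0 of the 6 passed the test (adjusted p between 0.0656 and 0.13, limma) although the changes stayed between 0.45 and 1.32, and over all genes 4 were called in place of 1335. Without PBS replicate 3, 0 of the 6 passed (adjusted p between 0.0514 and 0.139, changes 0.34 to 1.13) and 172 genes were called. With all arrays, and in each of these 2 settings, the 6 changes were positive. Without PBS replicate 4, 2 of the 6 were called, without LPS replicate 1 or 3, 4 were, and without any of the other 3 arrays 5 or 6 were. Among markers of other cells, 0 of 7 B-cell markers tested were called after LPS (limma; 0 at an unadjusted p under 0.05), with a summed signal of 3653 to 4227 after LPS and 3420 to 4722 after PBS. Of 6 mesothelial and fibroblast markers 2 were higher (747 to 938 after LPS, 663 to 710 after PBS). The 3 T and NK cell markers tested lay close to the floor and were not called. Cd3e (0.16, unadjusted p = 0.0396, limma) and Cd8a (0.22, 0.0135) had LPS arrays wholly above PBS arrays, as did 8.89% of all genes, while Prf1 (0.08) overlapped. The summed signal of the 3 was 606 to 670 after LPS and 547 to 591 after PBS. Of 7 dendritic and monocyte-derived cell markers 1 was higher, Zbtb46 (0.24), and the part of these cells was not tested.

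**Figure D3:**
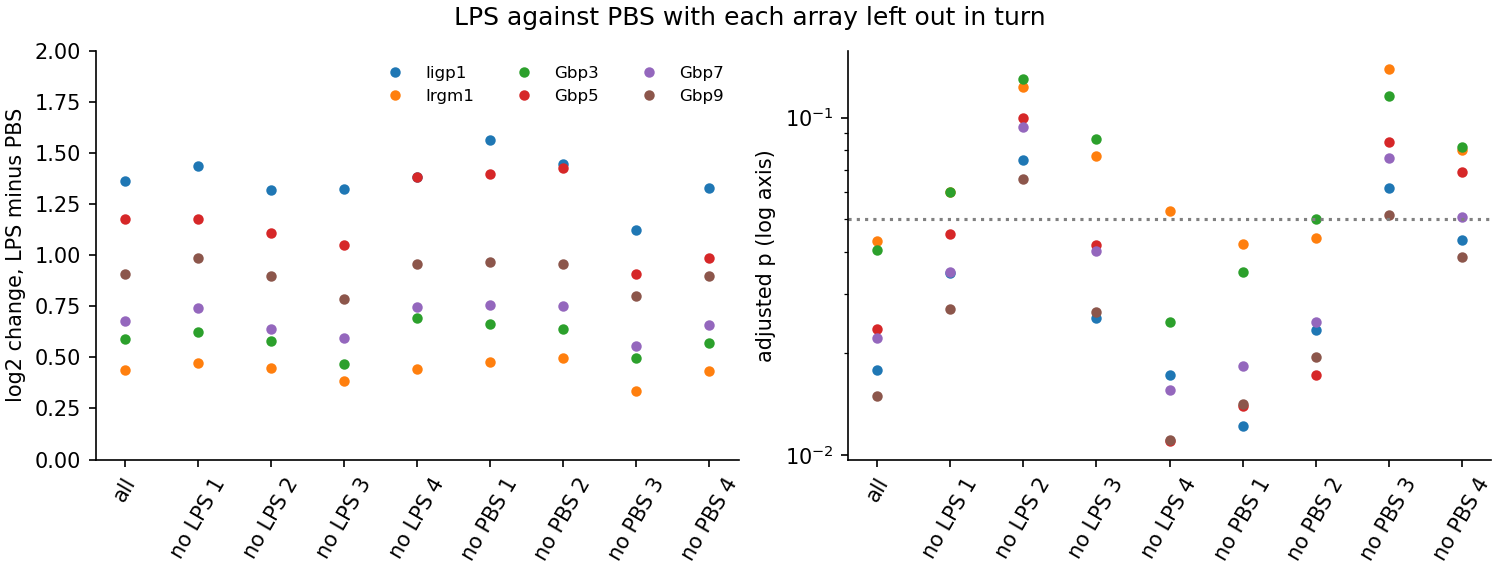
LPS against PBS with all arrays and with each array left out in turn (horizontal axis): log2 change (left) and adjusted p on a log axis (right), with the threshold of 0.05 dotted. The changes stay between 0.34 and 1.56 in all settings, while all 6 genes cross the threshold without LPS replicate 2 or PBS replicate 3.

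The KO effect and the LPS effect on these genes were set against each other directly, as the change in ATF7 KO minus the change after LPS; they share no arrays. Of the 6, 0 differed (limma, adjusted p between 0.101 and 0.793; 1 at an unadjusted p under 0.05, Irgm1), with differences between -0.42 (Gbp9) and 0.41 (Irgm1), where 29.3% of all genes tested differed and 18.8% had the larger change in ATF7 KO. The 95% intervals ran as low as -1.24 (Gbp5) and as high as 1.09 (Iigp1), so sizeable differences either way could not be detected. Among the 10 other GTPases tested 1 differed, Gbp2b, with the larger change after LPS (-0.90 ± 0.35, adjusted p = 0.0498); it was named after its values were seen.

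After PGN, 0 of the 6 were called (limma, adjusted p between 0.272 and 0.751; 2 at an unadjusted p under 0.05, Iigp1 and Gbp3), where 2.09% of all genes tested were called higher and 3.91% in either direction. All 6 changes were positive, between 0.10 (Irgm1) and 0.66 (Iigp1). Iigp1 was at 7.92, 8.04, 7.10 and 7.72 after PGN, against 7.62, 7.28, 6.31 and 6.92 after PBS. Replicate 3 of each group was its lowest in all 6 genes, and every gene's groups overlapped (6.33% of all genes were higher without overlap). The upper 95% bound of the change reached 1.32 in Iigp1.

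IMQ gave 0 of 6 calls (limma, adjusted p between 0.0744 and 0.409; 4 at an unadjusted p under 0.05, Iigp1, Irgm1, Gbp3 and Gbp9), with 3.09% of all genes tested called higher and 5.69% in either direction. The changes were again all positive, between 0.26 (Gbp7) and 0.96 (Iigp1). Iigp1 was at 8.72, 7.45, 8.19 and 7.62 after IMQ, against 7.62, 7.28, 6.31 and 6.92 after PBS, and it was called when PBS replicate 1 was left out (adjusted p = 0.0404). Gbp3, at 9.66, 9.06, 9.37 and 9.13 after IMQ against 9.0, 8.93, 8.52 and 8.72 after PBS, was the 1 gene of the 6 without overlap, where 8.97% of all genes were higher without overlap.

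After BG Iigp1, Gbp3 and Gbp9 were called higher, 3 of 6, where 20.2% of all genes tested were called higher and 41.6% in either direction. Whether the BG change differed between the genes was not tested. Gbp3 was at 9.29, 9.98, 9.05 and 9.58 after BG, above every PBS array (0.69 ± 0.18, adjusted p = 0.00339, limma). Gbp9 was at 7.64, 7.99, 7.34 and 7.72 after BG, and its lowest array exceeded the highest PBS array only in the second decimal (0.53 ± 0.20, adjusted p = 0.0377). Iigp1 was at 7.48, 8.76, 7.37 and 8.00 after BG and overlapped PBS (0.87 ± 0.32, adjusted p = 0.0308). Without overlap stood 2 of 6, Gbp3 and Gbp9, where 20.9% of all genes were higher without overlap.

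Irgm1 was not called after BG, at 8.47, 8.86, 8.38 and 8.56 after BG and 8.71, 8.77, 8.29 and 8.58 after PBS (-0.02, 95% interval -0.30 to 0.26). Gbp5 (0.74, adjusted p = 0.0509, limma) and Gbp7 (0.30, adjusted p = 0.156) also missed the threshold. The count of 3 fell to 1 without PBS replicate 3 or 4 or BG replicate 2 or 4, and in all 4 of these settings it was Gbp3 that stayed called. The summed B-cell signal was 2639 to 3122 after BG and 3420 to 4722 after PBS, with 2 of 7 B-cell markers tested lower. Over all genes tested, 41.6% were called in either direction after BG. Of 7 dendritic and monocyte-derived cell markers, Cd209a (-1.31) and Ccr7 (-0.98) were lower and Itgax (0.49) and Zbtb46 (0.19) higher after BG (summed signal 2312 to 2423 after BG, 2298 to 2806 after PBS). The part of these cells, and of the lower macrophage markers, was not tested.

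PBS against WT compares injected with uninjected mice, and 0 of the 6 genes were called (limma, adjusted p between 0.383 and 0.916; 0 at an unadjusted p under 0.05), although 32.7% of all genes tested were called in either direction and 19.7% higher. The changes lay between -0.30 (Gbp5) and 0.11 (Gbp7). Gbp5 showed the widest PBS spread, at 8.25, 8.34, 6.78 and 7.01 after PBS, against 7.77, 7.81, 7.85 and 8.16 in WT, with the PBS arrays on both sides of WT.

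The ligands were compared directly because an effect called after LPS and missed after another ligand need not differ between them. LPS against PGN gave 0 calls (limma, adjusted p between 0.0544 and 0.421; 5 at an unadjusted p under 0.05), where 12.1% of all genes tested were called in either direction and 2.98% higher. All 6 were higher after LPS in their means, by 0.22 to 0.89, and Iigp1, Gbp7 and Gbp9 had LPS arrays wholly above PGN arrays (5.05% of all genes did). Fitted on these 8 arrays alone, 5 were called (all but Gbp3), so the calls depend on which arrays enter the fit. LPS against IMQ gave 0 calls (limma, adjusted p between 0.0816 and 0.773; 3 at an unadjusted p under 0.05, Gbp5, Gbp7 and Gbp9), where 19.2% of all genes were called in either direction and 6.45% higher. LPS against BG gave 1, Irgm1, at 8.92, 8.98, 9.19 and 9.0 after LPS and 8.47, 8.86, 8.38 and 8.56 after BG (0.46 ± 0.14, adjusted p = 0.0102), where 34.9% of all genes were called in either direction and 16.7% higher. That call was kept when any 1 of the 8 arrays was left out (adjusted p between 0.00385 and 0.0443).

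Of the 4 probe sets that list several genes, each is described by its identifier, and its signal is assigned to no gene. They were tested in a fit over 15947 annotated probe sets, a choice made after it was seen that 4 of the 10 genes had no other probe set. All 4 were higher in ATF7 KO (17% of those probe sets were called higher) and all 4 after LPS (3.95% higher), without overlap in either comparison.

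Probe set 10376326 lists Irgm2 and Igtp, a regulatory pair. It was at 8.89, 9.20, 9.11 and 9.66 in ATF7 KO and at 8.31, 8.38, 8.52 and 8.78 in WT (log2 0.72, adjusted p = 0.00154, limma). After LPS it was at 9.24, 9.38, 9.51 and 9.03, against 8.64, 8.75, 8.26 and 8.41 after PBS (0.78, adjusted p = 0.0136). It was also higher after LPS than after PGN (0.68, adjusted p = 0.00892), IMQ (0.57, 0.0161) and BG (0.55, 0.0111), where 3.09%, 6.58% and 16.4% of the probe sets were called higher in these 3 comparisons. In all, 3 of the 4 were higher for LPS against PGN, with 10375515 (0.57, adjusted p = 0.0479) and 10496592 (0.63, 0.0314), 1 against IMQ, and 3 against BG, with 10496592 (0.49, 0.0481) and 10531994 (0.65, 0.0281).

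Probe set 10375515 lists Ifi47, an effector IRG, with the odorant receptor gene Olfr56. It rose 2.10-fold in ATF7 KO (7.69 against 6.62 in WT, adjusted p = 1.03e-04, limma) and 1.80-fold after LPS (7.40 against 6.55 after PBS, adjusted p = 0.0154). It was the only 1 of the 4 called after BG (0.49, adjusted p = 0.0428; 20.6% of probe sets higher). Probe set 10496592 lists Gbp2 and Gbp2b, and rose 1.84-fold in ATF7 KO (adjusted p = 9.62e-04) and 1.77-fold after LPS (0.0174). Probe set 10531994 lists Gbp9 with 5 other GBP genes of its cluster, and rose 1.88-fold in ATF7 KO (0.00331) and 2.07-fold after LPS (0.0142). After PGN and IMQ 0 of the 4 were called (limma; 0 at an unadjusted p under 0.05 after PGN and 2 after IMQ, 10375515 and 10531994), where 2.65% and 4.47% of probe sets were called higher after PGN and after IMQ.

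Within a group, the 6 genes rose and fell together from array to array. ATF7 KO replicate 4 was the highest and replicate 1 the lowest of its group in all 6. IMQ replicate 1 and BG replicate 2 were the highest of their groups in all 6, and PGN, BG and PBS replicate 3 the lowest of theirs in all 6. The spread within a group reached 1.55 (log2) for 1 gene in ATF7 KO and in PBS, as large as the largest difference between group means. Across 28 deviations from the group mean, Pearson's r over the 15 pairs of genes was 0.786 to 0.919 (median 0.88), while the other 13506 genes had a median r of -0.04 with the mean of the 6, with 5th and 95th percentiles of -0.44 and 0.45. All genes of an array share its RNA sample and normalization, so the r values are descriptive.

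**Figure D4:**
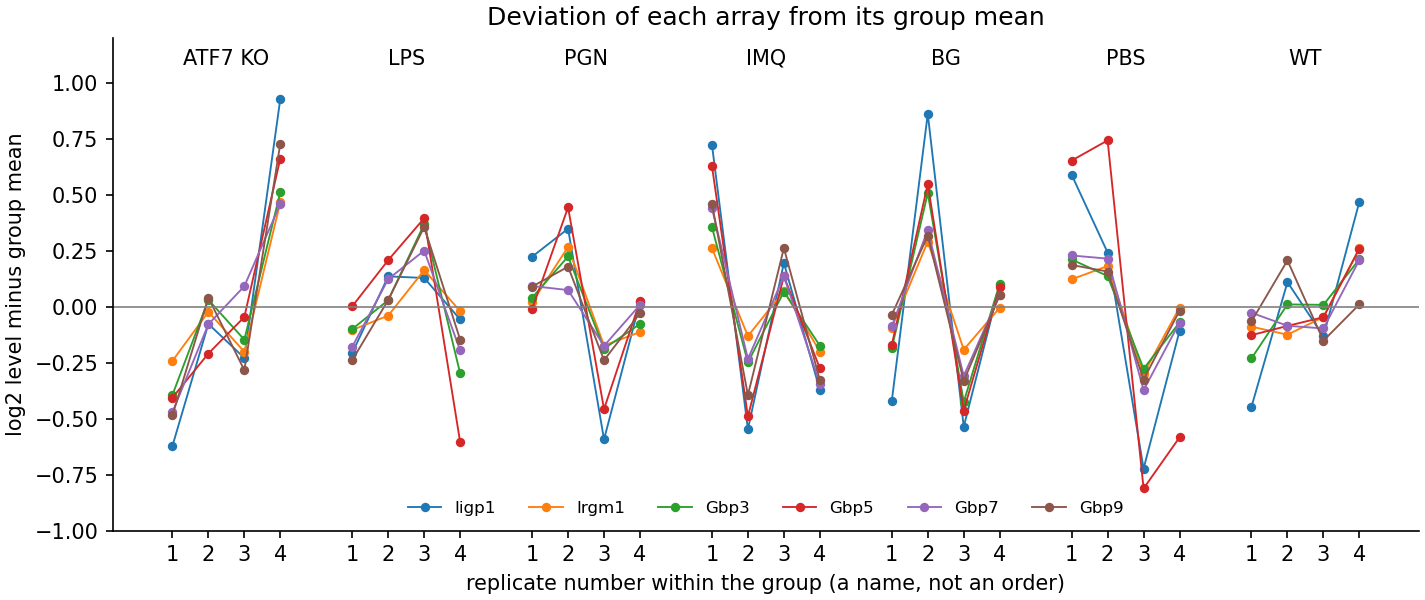
Each array's level minus its group mean (vertical axis, log2) for the 6 genes (colours), by group and replicate (horizontal axis, where a replicate number is a name and not an order). The 6 lines run together within groups, with ATF7 KO replicate 4 high and PBS replicate 3 low in all 6.

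The genes with levels most like the mean of the 6 over the 28 arrays, by root mean square difference of centred log2 levels, were Gm12250 (0.122; an IRG also named Irgb10), Rtp4 (0.133; a chaperone of receptor transport), Tnfsf10 (0.141; the death ligand TRAIL), Cmpk2 (0.153; a mitochondrial nucleotide kinase), Usp18 (0.156; a protease that removes ISG15 and restrains interferon receptor signalling), H2-T24 (0.159; a non-classical MHC class I gene), Oasl2 (0.167; of the oligoadenylate synthetase family) and Gbp4 (0.167). The median of all other genes tested was 0.456, and the 6 themselves were at 0.12 (Gbp7) to 0.3 (Iigp1). The mean of the 6 was at 0.47 in ATF7 KO, 0.41 after LPS and -0.12 after PGN relative to its mean over all arrays. Tnfsf10 was at 0.56, 0.52 and -0.07 in the same 3 groups.

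For other GTPases of the IRG, GBP and related families, 24 names were listed and 10 genes tested. The 10 include Irgc1 and Irgq, and whether each responds to interferon was not tested. In ATF7 KO 5 of the 10 were higher and 0 lower, where 17.7% of all genes tested were called higher (4.36% after LPS). These were Gm4951 (1.44 ± 0.29, adjusted p = 4.27e-04, limma), Mx1 (1.26 ± 0.22), Gm12250 (1.14 ± 0.21), Mx2 (0.92 ± 0.18) and Gbp4 (0.73 ± 0.26). After LPS also 5 of the 10 were higher and 0 lower, not the same 5: Gbp2b (1.28 ± 0.24, adjusted p = 0.0128), Gbp4 (1.05 ± 0.26), Gm12250 (0.98 ± 0.21), Mx1 (0.78 ± 0.22) and Gbp11 (0.64 ± 0.17). Gbp2b was at 0.38 in ATF7 KO without a call (adjusted p = 0.264) and was also higher after IMQ (0.95, adjusted p = 0.0194), the 1 call there, while Mx2 was the 1 call after BG (0.57, adjusted p = 0.0125). After PGN 0 of the 10 were called (limma; 1 at an unadjusted p under 0.05).

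Few interferon genes were called. Of 20 listed 7 were tested, and 0 were called in ATF7 KO or after LPS (limma; 0 at an unadjusted p under 0.05 in ATF7 KO and 2 after LPS). Ifng, which encodes the main inducer of IRGs and GBPs, lay close to the floor, at 6.56 ± 0.08 in ATF7 KO and 6.53 ± 0.12 in WT, and at 6.48 ± 0.10 after LPS and 6.43 ± 0.08 after PBS. Ifnb1 was at or under the floor. After BG the type I interferon genes Ifna5 (0.34, adjusted p = 0.00608, limma) and Ifna14 (0.18, adjusted p = 0.0484) were higher. Over all genes tested 20.2% were called higher after BG. Ifna5 was at 7.73 after BG, 7.39 after PBS and 7.62 in WT. Ifna14 was at 6.78, 6.60 and 6.73 in the same groups, and its BG and PBS arrays overlapped. Among 7 receptor and kinase genes, 4 were higher in ATF7 KO by small amounts, where 17.7% of all genes tested were called higher. These were the kinases Tyk2 (0.36) and Jak1 (0.14) and the receptor subunits Ifnar1 (0.28) and Ifngr2 (0.09). The 1 call after LPS was Ifngr1, lower by -0.16 (adjusted p = 0.0367, limma), where 9.88% of all genes were called in either direction. Ifnar2 (-0.21) and Ifngr1 (-0.16) were lower after BG, where 41.6% of all genes tested were called in either direction.

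Most of the tested transcription factors that interferons activate were higher in ATF7 KO, and most were higher after LPS. Over all genes tested, 17.7% were called higher in ATF7 KO, 4.36% after LPS and 20.2% after BG. In either direction 41.6% were called after BG. In ATF7 KO 6 of 8 tested were higher, led by Irf7 (1.21 ± 0.19, adjusted p = 2.67e-05, limma), with Stat2 (0.80), Batf2 (0.49), Irf1 (0.45), Irf9 (0.36) and Irf8 (0.17). After LPS 5 of 8 were higher: Irf7 (0.90 ± 0.19, adjusted p = 0.014), Stat2 (0.59), Irf1 (0.51), Batf2 (0.44) and Nlrc5 (0.36), an activator of MHC class I genes. Irf7 (0.63) and Nlrc5 (0.31) were higher and Irf8 (-0.27) lower after BG, and 0 of 8 were called after PGN or IMQ (limma; 2 at an unadjusted p under 0.05 after PGN and 3 after IMQ). Of 8 inhibitors of the pathway, Usp18 rose in both, by 1.19 ± 0.20 in ATF7 KO (adjusted p = 6.98e-05) and 0.97 ± 0.20 after LPS (0.0137). The other calls were the phosphatase gene Ptpn6 in ATF7 KO (0.24) and Socs1, which blocks JAK kinases, after LPS (0.25). After BG Usp18 was not called (0.41, adjusted p = 0.108), while Ptpn6 (0.28), Socs1 (0.32), Ptpn1 (0.22) and Socs3 (0.21) were higher and Pias1 was lower (-0.35).

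**Figure D5:**
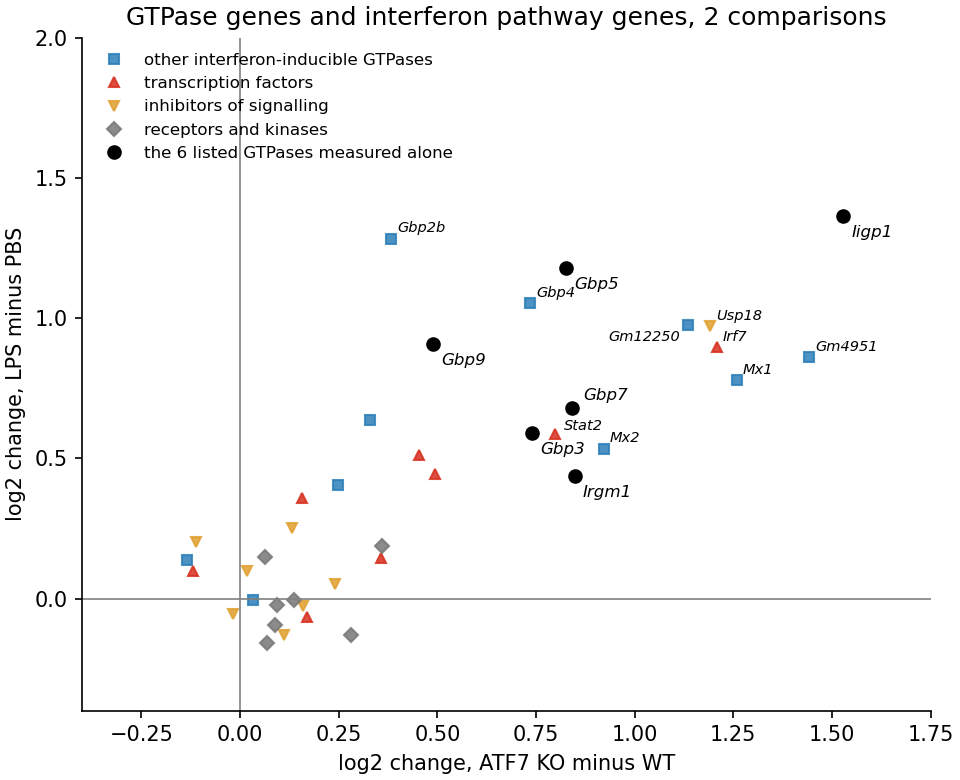
Change in ATF7 KO against WT (horizontal axis, log2) and after LPS against PBS (vertical axis, log2) for the 6 GTPases measured alone (black) and for tested genes of 4 related lists (colours); genes beyond 0.7 on either axis are named. The 6 GTPases measured alone are positive on both axes. They run from 0.49 (Gbp9) to 1.53 (Iigp1) in ATF7 KO and from 0.44 (Irgm1) to 1.37 (Iigp1) after LPS. Irf7 and Usp18 lie beyond 0.7 on both axes, and Gbp2b lies at 0.38 and 1.28. Receptors and kinases stay between -0.16 and 0.36.

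Genes of the machinery with which the GTPases work were called in both directions, as were genes at large. Over all genes tested, 28.3% were called in either direction in ATF7 KO and 9.88% after LPS. The shares were 41.6% after BG, 3.91% after PGN and 5.69% after IMQ. Among 16 genes of the autophagy conjugation system and its vacuole receptors, 7 were higher and 2 lower in ATF7 KO, with the receptor Sqstm1 (0.41), the conjugation substrate Gabarapl1 (0.44), Atg12 (0.31) and the ubiquitin ligase Trim21 (0.45) higher and Map1lc3a lower (-0.31). After LPS 1 was higher, Trim21 (0.34), and 3 were lower, Gabarapl1 (-0.25), Atg12 (-0.25) and Gabarapl2 (-0.15). Of 9 inflammasome genes, 4 were higher in ATF7 KO, the caspases Casp1 (0.51) and Casp4 (0.53), the adaptor Pycard (0.35) and the pore protein gene Gsdmd (0.22), and Il1b (-0.82) and Nlrp3 (-0.30) were lower. After LPS 0 of these 9 were called (limma; 1 at an unadjusted p under 0.05). After BG Casp1 (0.35), Casp4 (0.38) and Gsdmd (0.32) were higher and Il1b (-1.16), Nlrp3 (-0.33), Aim2 (-0.19) and Nlrc4 (-0.21) lower, while Nlrp3 (0.47) and Pycard (0.27) were higher after PGN and Nlrp3 (0.52), Pycard (0.25) and Aim2 (0.21) after IMQ. Without LPS replicate 2, 4 genes in all were called and none of the 6. At most 4 of the LPS calls of these lists can have stayed without that array, and which ones is not given here.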

How the data were processed

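The deposited values are linear intensities, which the authors summarised per probe set with RMA in Affymetrix Expression Console, per the submitters' processing notes. The version and the build were not given in the sources used here. RMA summarises probes after quantile normalization, which can shrink shifts shared by most genes. Here log2 was taken. Of 35556 probe sets, 21789 had 1 gene symbol in the platform table and 1621 had several. The floor was the 95th percentile of the means of 1210 odorant and vomeronasal receptor probe sets (6.32 log2). Genes above it on at least 4 of 28 arrays were kept, each with its brightest probe set (13512 genes). limma 3.58.1 (R 4.3.3) fitted 1 mean per group to all 28 arrays with an intensity trend, with Benjamini-Hochberg adjustment in each comparison and calls at an adjusted p under 0.05. The fit was tested on simulated data, with an outcome that is not given here and lends no weight to the calls. The number of arrays, 4 per group, limits the precision.

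Named were the 10 GTPase genes, Atf7, up to 6 called genes with the smallest p per pathway list and main comparison, and the 8 genes nearest to the mean of the 6. The members and lists were chosen with earlier results of these data known, and support nothing independently. Replicate numbers were not taken to pair arrays, since in 0 comparisons did every same-numbered pair correlate above 0.1. That rule cannot exclude pairing. The pairs of PGN with PBS were at 0.258, 0.187, 0.112 and 0.048, and those of LPS with PBS between -0.199 and 0.446. Alternatives were other filters, normalizations, variance models, fits on the groups compared alone, probe set means, a replicate block and leaving out each array. Figures were drawn with matplotlib 3.10.9.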

Additional observations from a re-analysis of the deposited data

Results flagged for a closer look

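The level of Irgm1 differed between 2 ligands under the same control. Irgm1 was the 1 call of the 6 genes there, where 16.7% of all genes tested were called higher and 34.9% in either direction. It was higher after LPS than after BG by 0.46 (log2), with 9.02 ± 0.11 after LPS and 8.57 ± 0.21 after BG (SD, n = 4 each; adjusted p = 0.0102, limma), and against the shared PBS arrays it changed by 0.44 after LPS and by -0.02 after BG. None of 42 combinations of gene and group held a distant array by Dixon's criterion, which flags about 1 in 20 by chance.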

How the results depend on the processing

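Counts of called genes among the 6 stayed within 1.5 times the reported count, with 4 exceptions. LPS against PGN gave 1 after quantile normalization and 5 when only the 2 groups were fitted (0 as reported), LPS against BG gave 3 when only those groups were fitted (1 as reported), and the difference between the KO and LPS effects gave 1 after median centring (0 as reported; Irgm1, 0.50, adjusted p = 0.0472, limma). Leaving out single arrays gave 4 to 6 calls in ATF7 KO, 0 to 6 after LPS, 0 to 1 after IMQ, 1 to 4 after BG, 0 to 1 for LPS against PGN, 0 to 1 against IMQ, 1 to 2 against BG, and 0 to 1 for the difference of effects; it gave 0 after PGN and for PBS against WT throughout. With the replicate block, the counts were 5 in ATF7 KO, 6 after LPS, 3 after BG, 1 for LPS against BG and 0 elsewhere, so the block changed no count. With all annotated probe sets tested, chosen after seeing the data, the counts were also unchanged. Of 480 values of single genes under other settings 465 kept direction and call. Gbp5 in ATF7 KO missed the threshold with no filter on dim genes (adjusted p = 0.0512). Near 0, directions turned: Gbp3 in PBS against WT was 0.025 after median centring, and leaving out single arrays gave -0.119 to 0.045 for Irgm1 after BG, -0.101 to 0.336 for Iigp1 and -0.105 to 0.065 for Gbp3 in PBS against WT, -0.043 to 0.198 and -0.235 to 0.075 for Gbp3 in LPS against IMQ and against BG, and -0.147 to 0.403 for Iigp1 and -0.022 to 0.279 for Gbp3 in the difference of effects. The causes were not tested.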
